A study of Rattus norvegicus with 9 samples.

Results

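The ASRN6LNC probes are taken here as the long noncoding RNA (lncRNA) class of a rat Agilent expression array. They were chosen by name alone, as every probe outside the array's controls whose name starts with ASRN6LNC, and numbered 3855 of 38804 probes, or 9.93%. No measured value entered that choice. Each was printed as 1 spot, none was saturated, and 0 of the names matched an entry of the rat gene table, so the class rests on the probe names, and members are named below by probe. Probe sequences and genomic positions were not used here. The comparison class was the 28287 ASRN6AP probes, which carry the other main name prefix of the array.

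Total RNA of whole lung from male Wistar rats, whose age is given as 6 to 8 weeks without the time it refers to, was hybridised to 1-colour arrays, with 3 arrays per group called biological replicates in the labels. Control rats inhaled "NS", which the labels do not spell out, for 90 days. CS rats (cigarette smoking) and PM2.5 rats (fine particulate matter) were exposed for the same 90 days, and the labels call both models of chronic obstructive pulmonary disease. Doses and the number of cells of each type were not given in the sources used here, and in whole lung fewer cells of a type and less RNA per cell cannot be told apart. The labels put the archiving of exposed replicates 1, 2 and 3 at 90, 91 and 92 days and that of all controls at 90 days.

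The 9 arrays came from 4 slides. The 3 control arrays had a slide and a scan day of their own, so that control status and slide cannot be told apart. Of the exposed arrays, CS 1 and PM2.5 3 were each the only array of their slide, and the remaining 4 lay together on a slide. The 75th percentile of spot signal, to which each array was scaled, was 332 ± 6.32 intensity units in control, 201 ± 12.9 in CS and 196 ± 53.3 in PM2.5 (SD, n = 3 arrays each). The lung label could not be checked against marker genes, because 0 of the tissue markers were among the 30 catalogue probes that matched a gene symbol.

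LncRNAs are long transcripts, many of them spliced and polyadenylated like messenger RNAs, that are not translated into a known protein. Some stay at the site of transcription and affect neighbouring genes, some hold proteins or microRNAs, and for many no function is known. As a class they are usually less abundant than messenger RNAs and more restricted to particular cell types, and in lung several have been studied in the airway epithelium, in macrophages and in smooth muscle.

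Levels are given as log2 signal minus the 75th percentile of the same array, so that 0 is the 75th percentile itself. The lncRNA class was dim. Its median level over the 9 arrays was -2.58, with the 5th and 95th percentiles at -4.63 and 0.99, while the ASRN6AP median was -1.32 and its 95th percentile 4.26. The median member stood at the 22.6th percentile of the ASRN6AP probes. Of the 3641 members tested, 1387 (38.1%) lay at or below -3, against 14.8% of ASRN6AP probes, and 117 (3.21%) lay above 2, against 16.8%.

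**Figure D1:**
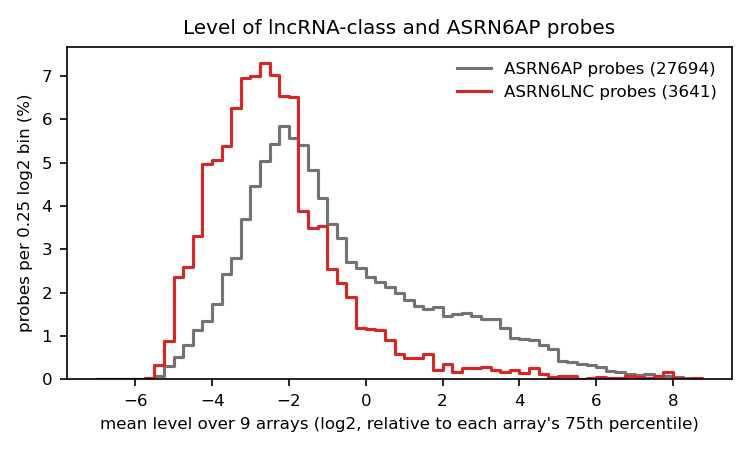
Share of probes (%) in each 0.25-wide bin of mean level over the 9 arrays (log2, relative to the 75th percentile), for 3641 ASRN6LNC and 27694 ASRN6AP probes. The lncRNA class is shifted to dim levels, with a median of -2.58 against -1.32, and keeps a thin tail up to 8.65.

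Dim did not mean undetected. The scanner software called 3407 members (88.4%) well above background on all 9 arrays, against 96.1% of ASRN6AP probes, and 60 on none. On single arrays the share ran from 91.5% to 96.4%. Testing asked for a group whose 3 arrays each called the probe well above background, which left out 198 members, and 16 more had a flagged spot, so 3641 (94.4%) were tested. The array's control probes for adenovirus E1A spike-in transcripts, whose addition the labels do not mention, had a mean level of -2.75, and 1643 members (45.1%) lay below it, against 19.4% of ASRN6AP probes. A member this dim is therefore called detected at a brightness that those control probes also show.

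The brightest members were well measured on every array. ASRN6LNC1A100003050V3, the brightest, read 8.41, 8.30 and 8.42 in control, 8.37, 8.87 and 8.86 in CS, and 8.83, 9.10 and 8.66 in PM2.5. Its CS arrays overlapped control and its PM2.5 arrays did not, a rise of 0.49 (SE 0.17, limma adjusted p = 0.0349). The next 4 were ASRN6LNC1A100608220V3 at 8.02 ± 0.04 in control, ASRN6LNC1A100004057V3 at 7.64 ± 0.12, ASRN6LNC1A100004904V3 at 7.66 ± 0.06 and ASRN6LNC1A100299494V3 at 7.62 ± 0.02 (SD, n = 3). Of these 4, only ASRN6LNC1A100299494V3 passed in any comparison, at 0.37 in PM2.5 over control (limma adjusted p = 0.0299), and it missed the threshold after quantile scaling (adjusted p = 0.722).

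The steadiest members were picked by the smallest range over the 9 arrays after subtracting the median deviation of ASRN6AP probes of the same level on each array. ASRN6LNC1A100001223V3 had the smallest such range, 0.13, and ASRN6LNC1A100187890V3, ASRN6LNC1A100271854V3, ASRN6LNC1A100007164V3 and ASRN6LNC1A100378033V3 had 0.15 to 0.17. Without that subtraction ASRN6LNC1A100001223V3 was not flat. It read -2.70, -2.72 and -2.68 in control, -1.97, -2.28 and -2.04 in CS, and -1.99, -1.75 and -2.30 in PM2.5. It was higher on all 6 exposed arrays than on any control array.

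That shift ran through most of the class and was larger in dim members. The change was positive in 87.0% of members in CS and 87.3% in PM2.5, beside 78.7% and 78.1% of all probes. Among ASRN6AP probes matched in level, as described below, it was positive in 85.3% and 86.3%. Members with a level at or below -4 had a median change of 0.71 in CS and 0.83 in PM2.5. Those with a level above 0 had 0.085 and 0.115. The median member level was -3.02, -2.97 and -2.90 on the control arrays, -2.22, -2.70 and -2.41 on the CS arrays, and -2.37, -2.07 and -2.60 on the PM2.5 arrays. All 6 exposed arrays were above all 3 control arrays. The median change of the members was 0.56 in CS and 0.66 in PM2.5, against 0.44 and 0.50 over all probes. The E1A control probes rose alongside, from -3.24 ± 0.10 in control to -2.55 ± 0.28 in CS and -2.45 ± 0.49 in PM2.5 (SD, n = 3), and their part in the class shift was not tested. After quantile scaling, which gives every array the same distribution of values, the median change of the members was 0.08 in CS and 0.11 in PM2.5, against 0.06 and 0.07 over all probes. Changes of single members are therefore called below only where they passed under both scalings with the same sign.

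To set the class against probes of its own brightness, each of the 3641 members was paired with 1 ASRN6AP probe nearest in mean level, with a mean gap of 0.000406 and a largest gap of 0.0973. At matched level the classes moved by similar amounts. The median member minus the median partner was -0.029 ± 0.010 in control, -0.005 ± 0.035 in CS and 0.009 ± 0.011 in PM2.5 (SD, n = 3 arrays). The members thus gained 0.0241 more than their partners in CS and 0.0384 more in PM2.5, and CS minus PM2.5 differed between the classes by -0.0143. The CS value was within the SD between CS arrays and the PM2.5 value was above that of PM2.5 arrays. Both turned to -0.0301 and -0.0142 when pairs were matched on the control arrays alone. The CS value also turned sign without CS 3 (-0.0186) and without PM2.5 1 (-0.0107), and the PM2.5 value was 0.0193 without PM2.5 1 and 0.0631 without control 1. The CS minus PM2.5 value was -0.0477 without CS 3 and 0.00188 without CS 2. Without matching, the members gained 0.226 and 0.276 more than all ASRN6AP probes, so that most of the raw gap between the classes went with brightness.

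Spread followed brightness in the same way. The median SD of a member over the 3 arrays was 0.105 in control, 0.277 in CS and 0.337 in PM2.5, and that of its partner was 0.098, 0.263 and 0.317. Members at or below -4 had a median SD of 0.210 in control, 0.461 in CS and 0.465 in PM2.5. Members above 0 had 0.0614, 0.222 and 0.177. The bright lncRNA probes in CS were the band that stood furthest from their partners, with a median SD of 0.222 against 0.168.

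**Figure D2:**
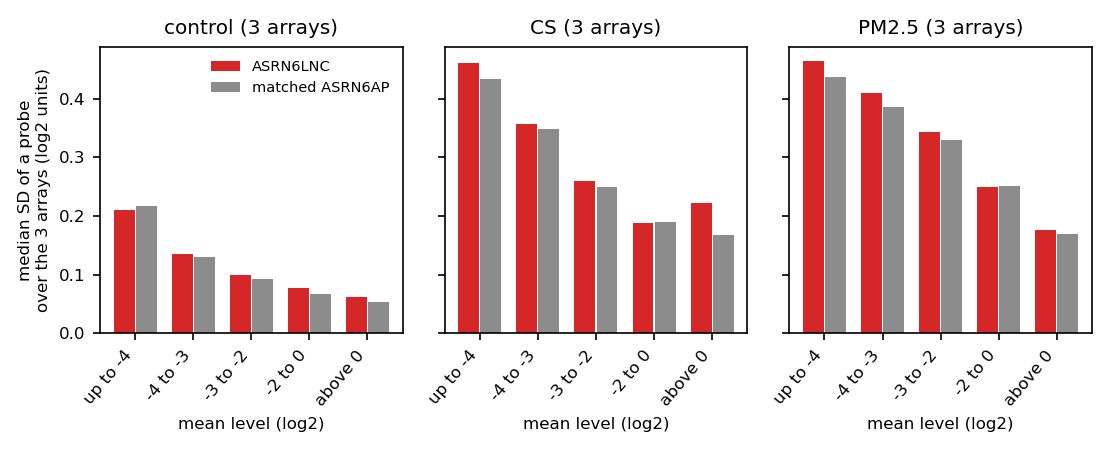
Median SD of a probe over the 3 arrays of a group (log2 units, bars from 0), for ASRN6LNC members (red) and their matched ASRN6AP partners (grey) in 5 bands of mean level. Spread falls with brightness in both classes, except that CS members above 0 rise to 0.222, and the control arrays are the least variable in each band.

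Many single members were called between CS and control, and the counts under the 75th percentile scaling include the common shift. With the 75th percentile scaling 1542 members (42.4%) were higher in CS and 170 (4.67%) were lower at a limma adjusted p below 0.05 (Benjamini-Hochberg over all 37643 probes tested), beside 39.0% and 8.48% of all probes. With quantile scaling 271 (7.44%) were higher and 299 (8.21%) lower, beside 11.8% and 12.8%. Under both scalings 270 (7.42%) were higher and 168 (4.61%) lower, beside 11.8% and 8.34%. The matched partners gave 277 and 194, so the lower share of lncRNA calls was close to that of other probes equally dim. The count of 1712 members in either direction under the 75th percentile scaling stood beside 47.5% of all probes. Without control 1, 2 or 3 it was 700, 743 and 1024, beside 21.8%, 23.2% and 29.2%. It was 972 without CS 1 (beside 30.4%) and 874 without CS 3 (beside 27.8%). With the slide entered as a random block it was 187, beside 6.11% of all probes.

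PM2.5 against control gave more calls in the fit of all 9 arrays. Without PM2.5 2, though, the count was 1473 against 2043 for CS, beside 41.0% and 54.8% of all probes. With the 75th percentile scaling 2017 members (55.4%) were higher in PM2.5 and 189 (5.19%) lower, beside 47.1% and 9.84% of all probes. With quantile scaling 444 (12.2%) were higher and 377 (10.4%) lower, beside 14.5% and 15.2%. Under both, 444 (12.2%) were higher and 187 (5.14%) lower, beside 14.4% and 9.65%, and the partners gave 406 and 220. The count of 2206 members in either direction under the 75th percentile scaling stood beside 56.9% of all probes. It was 1344 without control 1 (beside 35.8%), 1433 without control 2 (beside 37.6%) and 785 with the random slide block (beside 20.7%).

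The share called depended on brightness. Under both scalings 4.18% of members at or below -4 passed in CS against control, and 38.9% of those above 0, while their partners gave 7.25% and 45.1%. In PM2.5 against control the shares were 8.37% and 47.3% for members and 8.02% and 48.6% for partners. Bright members were thus called far more often than dim ones, in both classes.

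**Figure D3:**
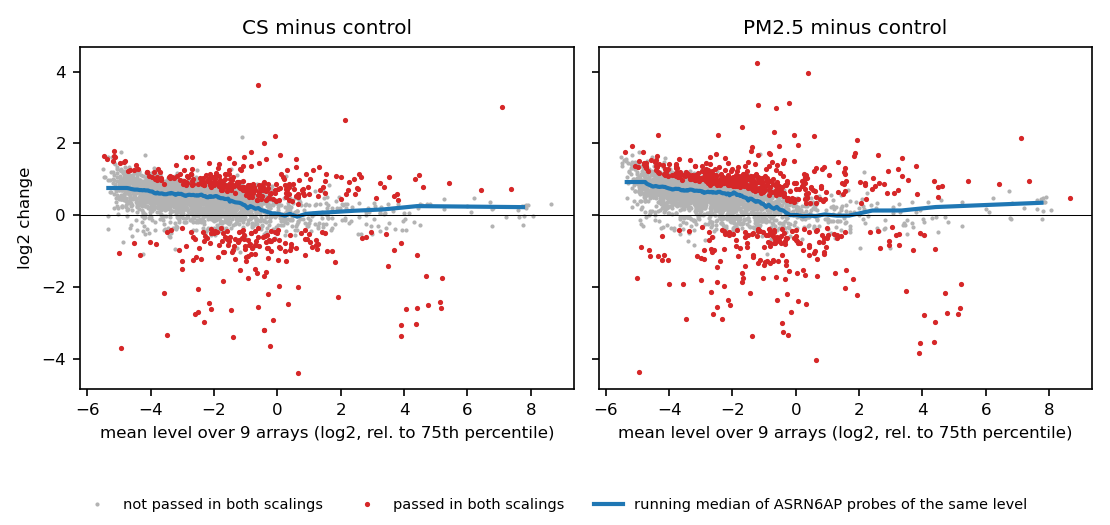
Log2 change of each of the 3641 members against its mean level over the 9 arrays (log2, relative to the 75th percentile), for CS minus control (left) and PM2.5 minus control (right). Red points passed under both scalings, and the blue line is the running median of ASRN6AP probes of the same level. Dim members sit on the raised line, and single members reach -4.38 in CS and 4.25 in PM2.5.

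CS and PM2.5, which share the same control arrays, differed from each other at few members. With the 75th percentile scaling 49 members (1.35%) were higher in CS and 52 (1.43%) lower, beside 3.18% and 2.74% of all probes. With quantile scaling the counts were 98 (2.69%) and 59 (1.62%), beside 5.18% and 3.56%. Under both they were 47 (1.29%) and 42 (1.15%), beside 3.14% and 2.44%, and the partners gave 66 and 50. On the 4 arrays of the slide that held both exposures, 29 members passed, beside 1.03% of all probes. The labels give exposed replicates of 1 number the same archiving day, but their arrays did not deviate together. With the replicate number as a block 67 members passed, beside 3.29% of all probes.

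A stricter description asked which members had all 3 arrays of a group at least 1 log2 unit apart from all 6 others, relative to probes of the same level. The rule was set after the values were seen. In 58 members (1.59%) control stood above both exposures, beside 1.49% of all probes and 33 of the matched partners. In 5 (0.137%) control stood below, beside 0.122% of all probes and 3 partners. PM2.5 stood above in 12 (0.33%, beside 0.367% and 5 partners) and below in 7 (0.192%, beside 0.205% and 3 partners). CS stood above the rest in 0 members, beside 0.0345% of all probes and 4 partners, and below in 0, beside 0.00797%. Where any members showed a pattern, their share was near that of all probes. The members were more than the partners in those patterns, and for CS above the rest the partners were more. Apart from control above, the counts were small, and no difference from the partners was tested.

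The largest fall of a detected member was shared by both exposures. ASRN6LNC1A100006728V3 read 3.43, 3.42 and 3.46 in control, -1.72, -0.50 and -0.61 in CS, and -1.42, -0.20 and -0.14 in PM2.5. The control arrays agreed within 0.05, and all 6 exposed arrays were at least 3.56 below them. It changed by -4.38 in CS (SE 0.39, limma adjusted p = 0.000253), a 20.8-fold difference, and by -4.02 in PM2.5 (SE 0.39, adjusted p = 0.000148), a 16.3-fold difference. CS 1 and PM2.5 1 were the lowest arrays of their groups, and CS and PM2.5 overlapped.

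ASRN6LNC1A100007996V3 went from detected to not well above background, and entered the test only through control, where it was high. It read -2.20, -2.18 and -2.40 in control, where all 3 arrays detected it. It read -5.57, -6.42 and -5.88 in CS and -7.23, -5.84 and -6.78 in PM2.5, where none did. Since the exposed values are only bounds, control was at least 7.25-fold higher than CS and at least 7.38-fold higher than PM2.5. The probe passed the limma threshold in both comparisons, but with the undetected readings taken as they stood. That test does not measure these bounds, so its p is not given. The bound sets the mean control level against the lowest signal still called above background on each exposed array. With normexp background correction the probe missed the threshold, with adjusted p = 0.112 in CS and 0.102 in PM2.5.

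A further 5 members that fell to about the same level in both exposures covered a wide range of brightness. ASRN6LNC1A100122152V3 went from 2.08 ± 0.12 in control to -1.56 ± 0.35 in CS and -1.25 ± 0.27 in PM2.5 (SD, n = 3). ASRN6LNC1A100003834V3 went from 0.85 ± 0.06 to -2.52 ± 0.28 and -2.51 ± 0.24, 10.4-fold lower in CS and 10.3-fold lower in PM2.5. ASRN6LNC1A100005567V3, much dimmer, went from -1.40 ± 0.13 to -4.72 ± 0.11 and -4.29 ± 0.11. Its CS arrays lay below its PM2.5 arrays, but CS minus PM2.5, at -0.42, did not pass (limma adjusted p = 0.089). In each of these 3 the exposed arrays lay at least 2.68 below the control arrays. ASRN6LNC1A100008128V3 changed by -3.19 in CS and -3.25 in PM2.5, and ASRN6LNC1A100003318V3 by -3.19 and -2.98. With the control mean entered as a single sample, ASRN6LNC1A100003318V3 missed the threshold in CS (adjusted p = 0.0732).

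Another 3 members were bright in control and fell to a different depth on each exposed array. ASRN6LNC1A100004531V3 read 6.28, 6.23 and 6.36 in control, 3.90, 2.68 and 2.22 in CS, and 1.62, 2.33 and 3.43 in PM2.5. It changed by -3.35 in CS (SE 0.49, limma adjusted p = 0.00187) and by -3.83 in PM2.5 (SE 0.49, adjusted p = 0.000549). ASRN6LNC1A100002985V3 read 6.09, 6.03 and 6.19 in control, then 3.82, 3.12 and 2.22 in CS and 1.88, 2.44 and 3.37 in PM2.5. ASRN6LNC1A100002404V3 read 6.53, 6.59 and 6.58, then 4.19, 3.47 and 2.95, then 2.29, 2.90 and 3.91. In all 3 members CS 1 and PM2.5 3, each alone on its slide, fell least. PM2.5 1 fell most, and every exposed array stood at least 2.21 below control. Whether the depth went with the slide or with the animal was not tested.

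These 3 members tracked each other closely. Their Pearson correlations over the 9 arrays were 0.997 to 0.998, and over the 6 exposed arrays alone 0.973 to 0.986. The arrays share group, slide and scale, and the 3 were grouped after the values were seen, so the correlations are a description. ASRN6LNC1A100000278V3, named for its likeness to ASRN6LNC1A100004531V3 (r = 0.998 over 9 arrays), showed the same order at a smaller depth, from 6.51 ± 0.15 in control to 4.01 ± 0.55 in CS and 3.78 ± 0.71 in PM2.5 (SD, n = 3). With a single control sample ASRN6LNC1A100004531V3 missed the threshold in CS (adjusted p = 0.125).

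**Figure D4:**
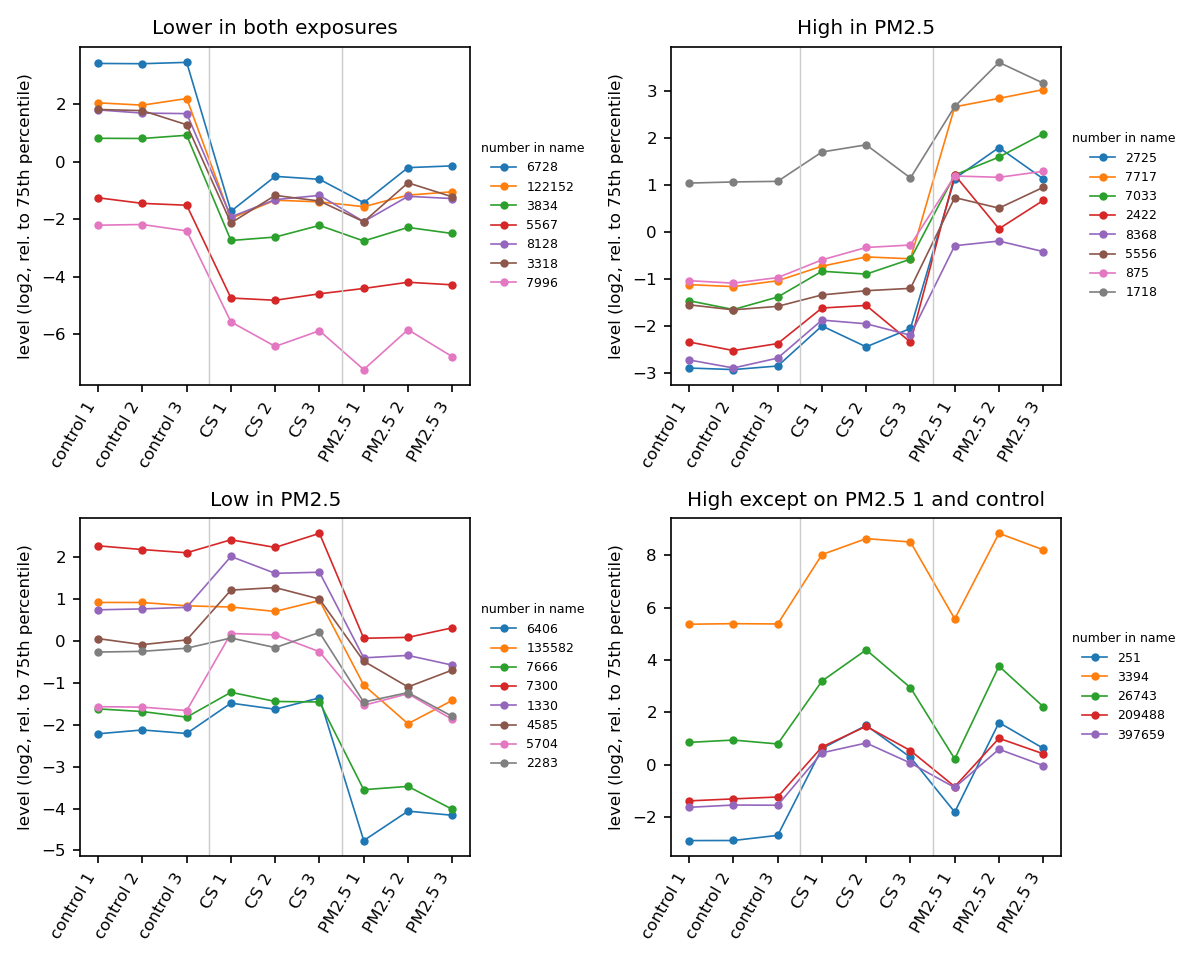
Level of named members on each of the 9 arrays (log2, relative to the 75th percentile), one line per member with the number in its probe name, grouped by pattern after the values were seen. The first panel shows falls on all 6 exposed arrays, the next panels show members whose PM2.5 arrays stand above or below the CS arrays, and the last shows 5 members with PM2.5 1 well below PM2.5 2 and 3.

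Members that stood higher in PM2.5 than in CS formed a second pattern. ASRN6LNC1A100002725V3 read -2.89, -2.92 and -2.85 in control, -1.99, -2.44 and -2.05 in CS, and 1.15, 1.81 and 1.14 in PM2.5. All PM2.5 arrays were above the other 6. PM2.5 was above control by 4.25 (SE 0.20, limma adjusted p = 4.31e-06) and 11.5-fold above CS (CS minus PM2.5 -3.52, adjusted p = 2.27e-05). The CS rise of 0.73 passed under the 75th percentile scaling (adjusted p = 0.0185) and missed under quantile scaling (adjusted p = 0.36).

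ASRN6LNC1A100007717V3 was tighter within groups. It read -1.11, -1.16 and -1.03 in control, -0.72, -0.52 and -0.56 in CS, and 2.67, 2.85 and 3.04 in PM2.5. The 3 groups did not overlap. It was 15.5-fold higher in PM2.5 than in control (log2 difference 3.96, SE 0.13, limma adjusted p = 6.83e-07), and on the slide that held both exposures CS minus PM2.5 was -3.31 (adjusted p = 6.82e-05). By correlation over the 9 arrays the members most like it were ASRN6LNC1A100005556V3 (r = 0.996), ASRN6LNC1A100006206V3 (r = 0.993) and ASRN6LNC1A100082626V3 (r = 0.99).

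A further 6 named members were high in PM2.5 by smaller amounts. ASRN6LNC1A100007033V3 went from -1.49 ± 0.14 in control to 1.64 ± 0.44 in PM2.5, with CS at -0.76 ± 0.17 (SD, n = 3). ASRN6LNC1A100002422V3 went from -2.41 ± 0.10 to 0.66 ± 0.57, with CS at -1.84 ± 0.44. ASRN6LNC1A100008368V3, ASRN6LNC1A100005556V3 and ASRN6LNC1A100000875V3 were 2.25 to 2.47 higher in PM2.5 than in control. ASRN6LNC1A100000875V3 also rose in CS, by 0.63, under both scalings (limma adjusted p = 0.00505 and 0.0133). Of these 5 members, ASRN6LNC1A100002422V3 was the one whose CS arrays overlapped control. ASRN6LNC1A100001718V3 had a CS minus PM2.5 difference of -1.58 (limma adjusted p = 0.00605), and on the shared slide it was -1.64 (adjusted p = 0.0531).

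The opposite pattern was a fall in PM2.5 with CS at or above control. ASRN6LNC1A100006406V3 read -2.22, -2.13 and -2.21 in control, -1.49, -1.64 and -1.36 in CS, and -4.76, -4.06 and -4.16 in PM2.5. All PM2.5 arrays were below all others, and CS was 7.12-fold higher than PM2.5 (log2 difference 2.83, SE 0.18, limma adjusted p = 5.13e-05). With normexp background correction the difference was 0.91 (adjusted p = 0.064). ASRN6LNC1A100007666V3, at -3.68 ± 0.29 in PM2.5 and -1.38 ± 0.13 in CS, likewise missed the threshold with normexp (adjusted p = 0.0809).

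ASRN6LNC1A100007300V3 was a brighter case. It read 2.26, 2.17 and 2.09 in control, 2.40, 2.22 and 2.55 in CS, and 0.05, 0.08 and 0.30 in PM2.5. CS overlapped control, and PM2.5 was apart from both. It changed by -2.03 in PM2.5 against control (SE 0.13, limma adjusted p = 2.17e-05), and its CS difference of 0.22 did not pass (adjusted p = 0.175). ASRN6LNC1A100135582V3 was likewise low in PM2.5, with 0.88 ± 0.05 in control, 0.82 ± 0.13 in CS and -1.49 ± 0.46 in PM2.5, and ASRN6LNC1A100002283V3 was 1.53 higher in CS than in PM2.5 (adjusted p = 0.00075).

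In 2 members the exposures passed in opposite directions from control. ASRN6LNC1A100001330V3 read 0.73, 0.75 and 0.79 in control, 2.00, 1.60 and 1.63 in CS, and -0.41, -0.35 and -0.58 in PM2.5. It rose by 0.98 in CS (limma adjusted p = 0.00159) and changed by -1.21 in PM2.5 (adjusted p = 0.000317), and the 3 groups did not overlap. ASRN6LNC1A100004585V3 rose by 1.16 in CS (adjusted p = 0.00169) and changed by -0.75 in PM2.5 (adjusted p = 0.00579), again with no overlap. The difference between exposures was 2.19 and 1.92, with adjusted p = 4.5e-05 and 0.000249.

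ASRN6LNC1A100005704V3 was high in CS. It read -1.57, -1.59 and -1.67 in control, 0.17, 0.14 and -0.27 in CS, and -1.54, -1.27 and -1.88 in PM2.5. All CS arrays were above the other 6, while PM2.5 overlapped control. It rose by 1.62 in CS (SE 0.18, limma adjusted p = 0.000664), and its PM2.5 difference of 0.05 did not pass (adjusted p = 0.827). The difference between exposures was 1.57 (adjusted p = 0.0011).

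The largest rises in CS came with an uneven PM2.5 group. ASRN6LNC1A100003394V3, a bright member, read 5.37, 5.39 and 5.38 in control, 8.03, 8.63 and 8.51 in CS, and 5.57, 8.84 and 8.21 in PM2.5. PM2.5 1 lay near control while PM2.5 2 and 3 lay near the CS arrays. It was 8.07-fold higher in CS than in control (log2 difference 3.01, SE 0.68, limma adjusted p = 0.00917). Under the random slide block the CS difference was 3.16 and missed the threshold (adjusted p = 0.106), as it did with a single control sample (adjusted p = 0.183).

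ASRN6LNC1A100000251V3 had the same shape at a lower level. It read -2.90, -2.89 and -2.70 in control, 0.62, 1.50 and 0.28 in CS, and -1.81, 1.61 and 0.63 in PM2.5. It rose by 3.63 in CS (SE 0.72, limma adjusted p = 0.00571), a 12.4-fold difference, with 3.74 and adjusted p = 0.086 under the random slide block and adjusted p = 0.162 with a single control sample. In PM2.5 it rose by 2.97 (adjusted p = 0.00877) and by 3.95 without PM2.5 1, and it missed the threshold with normexp (adjusted p = 0.0581) with the slide block (adjusted p = 0.0921) and with a single control sample (adjusted p = 0.134).

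ASRN6LNC1A100026743V3 read 0.85, 0.94 and 0.79 in control, 3.20, 4.39 and 2.94 in CS, and 0.22, 3.76 and 2.22 in PM2.5. PM2.5 1 was below every control array, and the PM2.5 difference of 1.20 did not pass (limma adjusted p = 0.181). It rose by 2.65 in CS (adjusted p = 0.0206) and missed the threshold without control 1 (adjusted p = 0.06), control 2 (0.0558) or control 3 (0.0548), under the slide block (0.182) and with a single control sample (0.222). ASRN6LNC1A100209488V3 rose by 2.20 in CS and ASRN6LNC1A100397659V3 by 2.02, and under the slide block the values were 2.24 and 2.04 (adjusted p = 0.0802 and 0.0581). With a single control sample their adjusted p was 0.157 and 0.137. Over the 9 arrays the 5 members had pairwise correlations of 0.922 to 0.992, and over the 6 exposed arrays 0.879 to 0.991. The 5 were grouped by this shape after the values were seen, so the correlations only describe it.

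Another 2 named members rose in both exposures. ASRN6LNC1A100005129V3 read -2.06, -1.94 and -1.90 in control, -0.24, -0.36 and -0.04 in CS, and -0.14, -0.19 and -0.48 in PM2.5. All 6 exposed arrays were above control and CS and PM2.5 overlapped. It rose by 1.75 in CS (SE 0.14, limma adjusted p = 0.00013) and by 1.70 in PM2.5 (adjusted p = 6.53e-05). ASRN6LNC1A100003753V3 rose by 1.68 and 1.94. With a single control sample the adjusted p of ASRN6LNC1A100003753V3 in CS was 0.0908. Both are among the 5 members with control at least 1 log2 unit below all 6 exposed arrays relative to probes of the same level, with ASRN6LNC1A100007787V3, ASRN6LNC1A100082743V3 and ASRN6LNC1A100365740V3, which were named after their values were seen.

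ASRN6LNC1A100005952V3 was detected on 0 of 3 control arrays, 3 CS arrays and 2 PM2.5 arrays, and so entered the test only through CS, where it was highest. It read -5.97, -6.66 and -6.00 in control, -4.34, -4.53 and -4.35 in CS, and -5.06, -4.63 and -4.97 in PM2.5. CS was at least 2.22-fold higher than control. For this member the limma test took the undetected control readings as they stood, so its p does not measure that bound. With normexp background correction the limma adjusted p was 0.818. Its PM2.5 difference missed the threshold under quantile scaling (0.30, adjusted p = 0.338). In all, 17 members (0.441%, beside 0.149% of all probes) were detected on all CS and no control array, and 24 (0.623%, beside 0.237%) on all PM2.5 and no control array. A flagged spot counted as not detected. The class is dimmer than all probes, and no such shares were computed for the matched partners. The exposed group was at least 1.61-fold to 2.22-fold higher in the 12 of the former with a bound, and at least 1.55-fold to 2.63-fold in the 19 of the latter. Those without a bound lacked a value on a control array and were not tested. Detection on all control arrays but on none of an exposed group was seen for 2 members in CS and 2 in PM2.5 (0.0519% each, beside 0.0232% of all probes), with ASRN6LNC1A100007996V3 in both. The others, named after their values were seen, were ASRN6LNC1A100001000V3, whose mean level was -5.15 in control and -5.11 in CS and so did not fall, and ASRN6LNC1A100006972V3, at -4.07 in control and -5.80 in PM2.5.

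Some members stood apart on 1 array of a group only, by at least 1 log2 unit with the other 2 arrays within 0.5 of each other, again relative to probes of the same level and by a rule set after the values were seen. PM2.5 3, alone on its slide, had 68 members above and 3 below, or 1.95% of members, against 1.76% of partners and 1.36% of all probes. CS 1, also alone on its slide, had 6 above and 20 below, or 0.714% of members, against 0.604% of partners and 0.72% of all probes. The other 7 arrays had at most 13 each. That was at most 0.357% of members, beside 0.0531% to 0.481% of all probes.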

How the data were processed

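Spot intensity in the deposited scanner files had been background-subtracted by the authors; the headers name Feature Extraction 11.0.1.1. The authors' log2 values were deposited in a series table and were used as an alternative, with a correlation to the scanner values of 0.9987 to 0.99995 per array. Their normalization is not given in the sources used here. RNA was extracted with TRIzol and labelled by Quick Amp, per the labels' protocols.

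Processed signals were taken as log2 minus each array's 75th percentile, spots of a probe were averaged, and 37643 of 38804 probes entered limma 3.58.1 (R 4.3.3; lmFit, eBayes, two-sided, all 9 arrays, Benjamini-Hochberg at 0.05 over all probes tested). A probe entered if well above background on all arrays of a group, without flagged spots. Named members were the 8 rising and 8 falling most per comparison among those past the threshold under both scalings without overlap, the 5 brightest and the 5 steadiest. Further members were named by likeness or from counts of 5 or fewer. Members and lists were chosen with earlier results of these data known. The fit was tested on simulated data. Those had independent noise and the same SD of a probe in every group, so they do not cover slides or the smaller control spread. p-values measure the spread between arrays, and their number limits the precision.

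Replicate numbers recur across groups, and in the exposed groups go with the archiving day, but same-numbered arrays did not deviate together (correlations -0.45 to 0.18), so no block was used. Alternatives covered scaling, background (normexp with offset 50 on median spot signals), filters, matching, blocks and left-out arrays.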

Additional observations from a re-analysis of the deposited data

Results flagged for a closer look

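The listed members differed between the effects of CS and PM2.5, which share 1 set of control arrays, by a limma test of CS against PM2.5 with Benjamini-Hochberg adjustment over all probes.

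Of the 16, 8 were higher in CS. ASRN6LNC1A100006406V3 differed by 2.83, from a change of 0.69 in CS and -2.14 in PM2.5. ASRN6LNC1A100135582V3 differed by 2.31 (-0.06 and -2.37) and ASRN6LNC1A100007666V3 by 2.30 (0.33 and -1.97). ASRN6LNC1A100007300V3 differed by 2.25 (0.22 and -2.03) and ASRN6LNC1A100001330V3 by 2.19 (0.98 and -1.21). ASRN6LNC1A100004585V3 differed by 1.92 (1.16 and -0.75), ASRN6LNC1A100005704V3 by 1.57 (1.62 and 0.05) and ASRN6LNC1A100002283V3 by 1.53 (0.27 and -1.27). Their adjusted p ran from 2.98e-05 to 0.00109.

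The other 8 were higher in PM2.5. CS minus PM2.5 was -3.52 for ASRN6LNC1A100002725V3 (0.73 in CS and 4.25 in PM2.5), -3.46 for ASRN6LNC1A100007717V3 (0.50 and 3.96) and -2.49 for ASRN6LNC1A100002422V3 (0.57 and 3.07). It was -2.40 for ASRN6LNC1A100007033V3 (0.73 and 3.13), -1.99 for ASRN6LNC1A100005556V3 (0.33 and 2.33) and -1.71 for ASRN6LNC1A100008368V3 (0.76 and 2.47). It was -1.62 for ASRN6LNC1A100000875V3 (0.63 and 2.25) and -1.58 for ASRN6LNC1A100001718V3 (0.51 and 2.09). Their adjusted p ran from 1.47e-06 to 0.00605.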

How the results depend on the processing

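Counts of members called moved most. For CS against control, 1712 became 570 with quantile scaling, 650 with centring on the median, 576 with the authors' log2 values, 120 with normexp, 187 with slide as a random block, 21 with the control arrays as 1 sample and 254 with a 2-fold minimum, and 700 to 2260 when 1 array was left out. For PM2.5 against control, 2206 became 821, 1045, 820, 166, 785, 146 and 507 in the same order, and 1344 to 2751 with 1 array left out. For CS against PM2.5, 101 stood beside 5.91% of all probes. It became 157 (8.74%) with quantile scaling, 158 (8.75%) with the authors' values, 26 (1.36%) with normexp and 42 with a 2-fold minimum. It was 40 (1.67%) with only those 2 groups fitted, 29 (1.03%) on the shared slide, and 70 to 129 (3.58% to 6.86%) with 1 array left out. With the replicate number as a block the counts were 1153, 1799 and 67, beside 33.8%, 47.1% and 3.29% of all probes. Same-numbered arrays did not deviate together, and under that block 16 of 16 named members stayed past the threshold in each comparison. The split in CS against control was 1542 higher and 170 lower, 271 and 299 with quantile scaling, and 315 and 335 with median centring.

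Members gained 0.0241 more than partners in CS. That was -0.00167 with normexp, -0.0301 with matching on control arrays, 0.226 without matching and -0.0186 to 0.0456 with 1 array left out. In PM2.5, 0.0384 became 0.0193 with normexp, 0.0183 with the authors' values, 0.0591 without a filter, -0.0142 with control matching, 0.276 without matching and 0.0193 to 0.0631 with 1 array left out. CS minus PM2.5 was -0.0505 without matching and -0.0477 to 0.00188 with 1 array left out. The excess SD of members over partners in control, 0.00654, became 0.00182 with quantile scaling, 0.00237 with median centring, 0.00221 with the authors' values, 0.0315 without matching and 0.00341 to 0.0109 with 1 array left out. In CS it was 0.0143, with 0.0765 and 0.00719 to 0.0315 for the last 2 settings. In PM2.5 it was 0.0195, with 0.00466 under normexp, 0.00638 with the authors' values, 0.0899 without matching and 0.00847 to 0.0312 with 1 array left out. The cause of these moves was not tested.

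In the comparison that named it, no member changed direction. Of 16 named per comparison, 14, 14 and 14 stayed past the threshold under normexp, 11, 15 and 16 under the slide block, and 8 (CS) and 15 (PM2.5) with the control arrays as 1 sample, where all 5 of the largest CS rises were lost. Dim signal limits the class. Of the members, 45.1% lay below the E1A control probes, whose level was not shown to mark background.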
